A study of Mus musculus with 3 samples.

Results

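The 41 genes described here encode the surface receptors with which macrophages bind and engulf particles, adhere to matrix and sense immune complexes, together with the kinases and phosphatases that relay or stop those signals. They were chosen by name: 5 Fc gamma receptor genes including the shared signalling chain, 8 integrin and adhesion receptor genes, 5 scavenger and lipoprotein receptor genes, 3 C-type lectin genes, 6 genes of TREM2-DAP12 signalling and apoptotic cell uptake, 6 genes for kinases, an exchange factor and a phospholipase, and 8 genes for inhibitory receptors, their ligand and phosphatases. A predicted m6A site was given to a member when it lay within the gene's span on the same strand in GENCODE M21 (genome build GRCm38), and it was placed on the transcript with the longest coding sequence (CDS). By this rule 138 of the 19301 listed sites lay in members, and 24 of the 41 genes held at least 1 site.

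The sites came from miCLIP2 of poly(A)+ RNA from RAW264.7, an established mouse macrophage line, cultured without treatment. The 3 libraries were biological replicates made with 1 μg of RNA and 6 cycles of preamplification. The method crosslinks an antibody against N6-methyladenosine (m6A) to RNA by UV light, and reverse transcription stops or misreads at the crosslink. The authors pooled the replicates into 1 list of adenosines to which the classifier m6Aboost gave a prediction score above 0.5. All samples belonged to 1 condition and the list holds no counts, so neither the read depth nor the replicate spread of a site is known, and no test between groups exists.

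m6A is written by the METTL3-METTL14 complex, mostly at the sequence DRACH (D is A, G or T, R is A or G, H is A, C or T), and is known to gather in last exons and long internal exons of mRNA. Reader proteins of the YTH family bind it and influence decay and translation of the transcript. Activating receptors of phagocytes signal through ITAM tyrosines, which Src-family kinases such as LYN and FGR phosphorylate and SYK binds, whereas inhibitory receptors carry ITIM tyrosines that recruit phosphatases such as SHP-1 (Ptpn6), SHP-2 (Ptpn11) and SHIP-1 (Inpp5d).

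The highest-scoring exonic site of each of the 8 members with most exonic sites is shown first, since these transcripts held most of the sites. Each sequence is the 21 nt around the site in GRCm38, 5′ to 3′ on the transcribed strand, with the pentamer centred on the predicted m6A in capitals.
Itga4, chr2:79327517-79327537, plus strand, 3′ UTR, score 0.953: gcagatagGAACTgtaaaatc
Lyn, chr4:3790538-3790558, plus strand, 3′ UTR, score 0.95: ccactgctGAACTggagccct
Itga5, chr15:103344823-103344843, minus strand, 3′ UTR, score 0.917: agagcctgAGACTtggggagt
Sirpa, chr2:129630407-129630427, plus strand, 3′ UTR, score 0.907: cagagggcGAACTggagaaag
Itgb1, chr8:128732258-128732278, plus strand, 3′ UTR, score 0.889: catgccagGGACTgacagaag
Fcgr1, chr3:96284258-96284278, minus strand, 3′ UTR, score 0.839: tgaccctgAAACTgtgggacc
Inpp5d, chr1:87715177-87715197, plus strand, CDS, score 0.831: ctacccaaAGACTcctccctg
Lrp1, chr10:127610417-127610437, minus strand, CDS, score 0.757: ttgtctggGGACTgagctatg
All 8 centres lay in DRACH. GAACT was the pentamer of 3 of them, and the Lrp1 site had the lowest score of the 8.

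The sites were spread unevenly over the members. Of the 41 genes, 24 had a site, a share of 58.5% (95% Wilson interval 43.4 to 72.2%), beside 22.5% of the 21901 protein-coding genes of the annotation. At least 10 sites were listed for 6 members, Itga4, Lrp1, Itga5, Sirpa, Lyn and Inpp5d, beside 1.64% of protein-coding genes. The members are known macrophage genes and the protein-coding genes include many that the line may not express, so these shares are a description and expression was not measured here. The median member with a site had 4 (quartiles 1.75 and 7.75), against 3 (1 and 5) in the 4897 other protein-coding genes with a site. The 4 members with most sites, Itga4, Lrp1, Itga5 and Sirpa, held 62 of the 138 sites (44.9%), and 6 members had a single site.

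**Figure D1:**
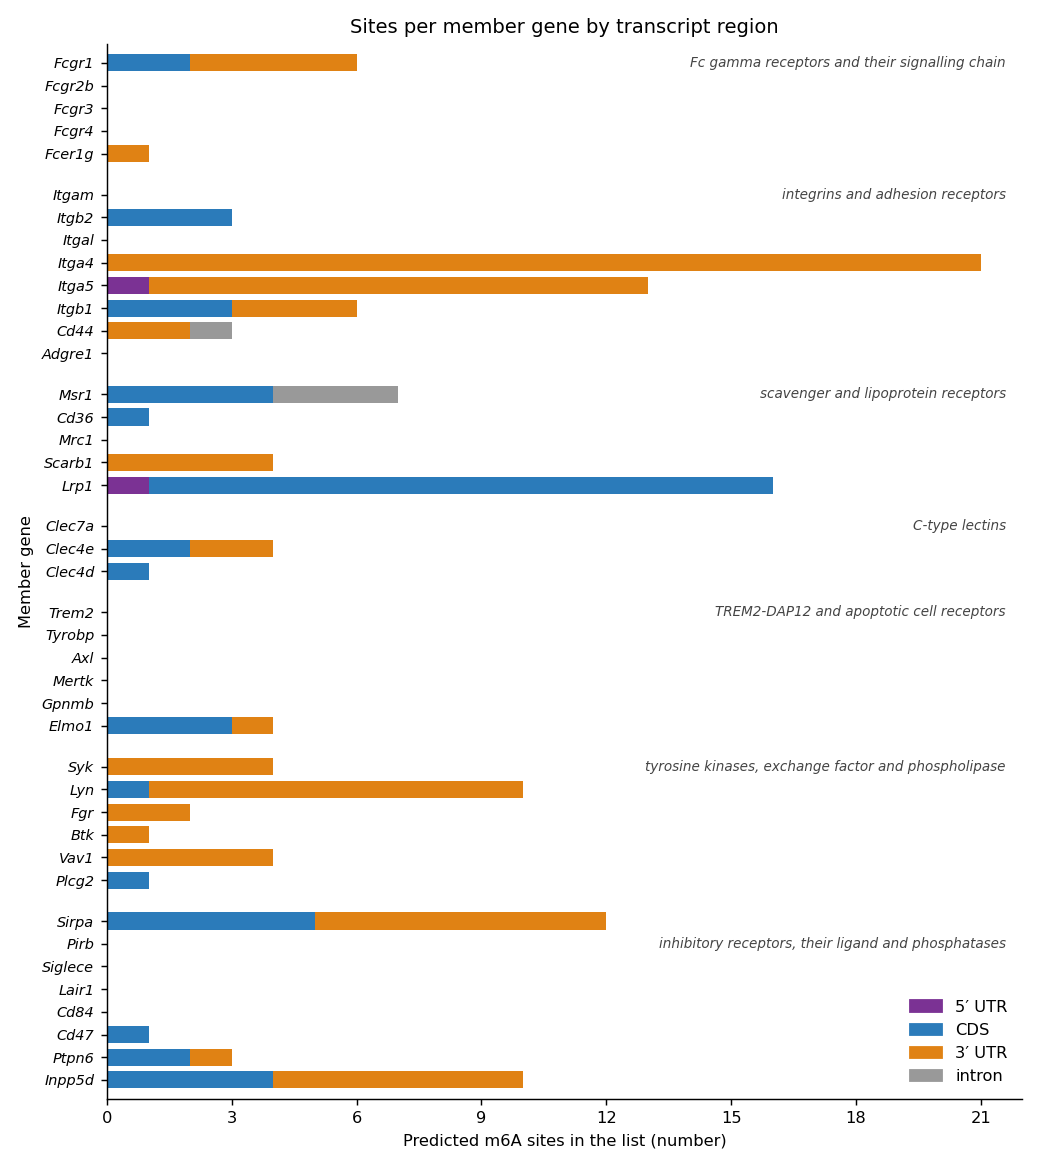
Horizontal bars give the number of predicted m6A sites (x axis) in each of the 41 members (y axis), stacked by transcript region and ordered by role. Itga4 reached 21 sites, all in the 3′ UTR, Lrp1 16 sites with none in the 3′ UTR, and 17 members had none.

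Member sites lay mostly in 3′ UTRs. Of the 138 sites, 84 were in the 3′ UTR (60.9%, 95% interval 52.5 to 68.6%), 48 in the CDS (34.8%), 2 in the 5′ UTR and 4 in an intron of the transcript used. In the other protein-coding genes the 3′ UTR held 43.1% of 19041 sites and the CDS 51.5%. Single members moved these shares: without Itga4 the 3′ UTR held 53.8% of member sites, and without Lrp1 68.9%. The last exon held 94 of the 134 exonic member sites (70.1%), against 68.8% in other genes, but without Lrp1 the share was 78.8% (70.6 to 85.2%). Within that exon 10 of the 94 member sites were coding (10.6%, 5.88 to 18.5%), against 35.3% in other genes. Without Itga4 this share was 10 of 73 (13.7%). Members with a site had 772 DRACH motifs in last exons and 695 in 3′ UTRs, against 182444 and 149715 in other genes with a site. The part of the motifs available in the lower coding share was not tested.

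The median distance of 3′ UTR sites from the stop codon depended on Itga4. The median 3′ UTR site of the members lay 373 nt past the stop codon (quartiles 173 and 739, with 0 for the first base after it and negative distances upstream), and that of other genes 233 nt past it (95 and 530). Itga4 supplied 21 of the 84 sites, and the median of the other 63 was 269 nt (140 and 560). Within 200 nt of the stop codon on either side lay 35 of 134 exonic member sites (26.1%, 19.4 to 34.1%), against 32.6% in other genes, a share inside the interval. Without Itga4 the member share was 27.4%. At least 1 site within that window was found in 16 of the 24 members with a site.

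**Figure D2:**
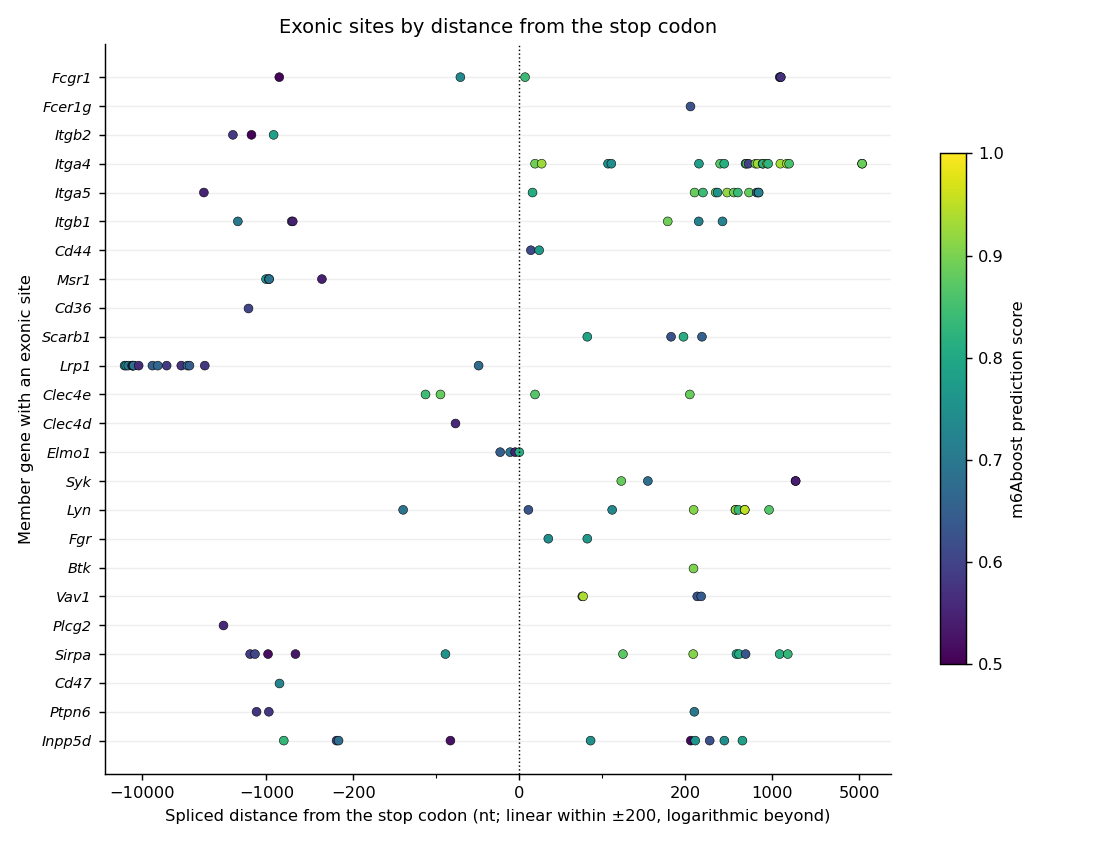
Each point is an exonic site of the member on the y axis, at its spliced distance from the stop codon (x axis, in nt, linear within 200 nt and logarithmic beyond, 3′ UTR to the right), coloured by prediction score. Lrp1 sites lay as far as -13803 nt, the Itga4 sites up to 5288 nt downstream, and the 4 Elmo1 sites around the stop codon.

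Among the integrins and adhesion receptors, 5 of 8 genes had 46 sites. Itga4 encodes the alpha-4 chain that pairs with beta-1 or beta-7 to bind VCAM-1 and fibronectin, and with 21 sites it had the most of any member (chr2:79255426-79333123). All 21 were in its 3′ UTR of 6508 nt, with scores from 0.586 to 0.953 and a median of 0.854. The first 19 lay between 19 and 1369 nt past the stop codon, and the other two at 5281 and 5288 nt. The 3911 nt between these groups held 92 DRACH motifs and no listed site. Repeated sequence was part of that stretch: 974 of its positions stood at the centre of a 31-mer that occurs more than once in the genome, where uniquely mapped reads can be lost, but 63 of the 92 motifs were at unrepeated positions. Of the first 19 sites, 4 that lay 611 to 764 nt past the stop codon stood in repeated 31-mers themselves and had scores from 0.701 to 0.926. They were the only 4 of the 134 exonic member sites in such sequence, and the part of repeats in the gap was not tested.

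Sites in the proximal Itga4 3′ UTR came in runs: 9 of them, from 611 to 929 nt past the stop codon, followed each other at no more than 100 nt. A pair of these 8 nt apart and the distal pair 7 nt apart are shown, since few DRACH sites of this gene lay closer together. The windows are 30 nt long with the predicted m6A in capitals.
Itga4 proximal pair, chr2:79327444-79327473, plus strand: aaagcagaggAcctgaagActgctcttggt
Itga4 distal pair, chr2:79331886-79331915, plus strand: cagggtagggaAcaaaggAcatagggaagc
The proximal pair scored 0.824 and 0.822, and the distal pair 0.586 and 0.886.

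Itga5, the alpha-5 chain of the fibronectin receptor, had 13 sites (chr15:103344286-103366763), of which 12 lay between 16 and 780 nt past the stop codon and 1 in the 5′ UTR, with a score of 0.550. Its 3′ UTR sites stood at 12 of the 35 DRACH motifs of the last exon (34.3%, 20.8 to 50.8%), the highest share among members with a site. Itgb1, the beta-1 chain that pairs with both alpha chains, had 6 sites, 3 coding ones with scores from 0.544 to 0.699 and 3 in the 3′ UTR with scores from 0.718 to 0.889. Thus all 3 beta-1 integrin chains among the members held sites in the 3′ UTR. Of the leukocyte beta-2 integrins, Itgam and Itgal, the alpha chains of the complement receptor CR3 and of LFA-1, had no site. Itgb2, their common beta chain, had 3 sites in internal CDS exons with scores of 0.586, 0.504 and 0.784. The last exons of Itgam, Itgal and Itgb2 carried 8, 29 and 11 DRACH motifs, and none of them was listed. For Itgb2 this allows a share of up to 25.9% by the Wilson interval. For Itgam and Itgal, a lack of expression cannot be told apart from a lack of methylation. Of integrin alpha chains outside the members, Itgax and Itga6 had no site, and Itgav had 1, in the CDS. Cd44, the hyaluronan receptor, had 2 sites at 14 and 24 nt past the stop codon and 1 outside the exons of all its annotated transcripts, at TTACC with a score of 0.551. Adgre1, the gene of the macrophage antigen F4/80, had no site.

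Among the scavenger and lipoprotein receptors 20 of 28 sites were in the CDS, and Lrp1 held 15 of these 20. The other 4 genes had 12 sites, 5 in the CDS, 4 in the 3′ UTR and 3 in an intron of the transcript used. Lrp1 encodes a giant endocytic receptor for lipoproteins, protease complexes and apoptotic cells (chr10:127538161-127621148). Its 16 sites comprised 15 in the CDS and 1 upstream of the start codon. In the CDS, 14 sites were scattered over 13 of its 87 internal exons, each 126 to 264 nt long, and all 14 were within 100 nt of an exon junction, as were 289 of the 306 DRACH motifs in its internal exons. The scores ran from 0.562 to 0.757 with a median of 0.665, so that no Lrp1 site reached the level of the best sites of Itga4 or Lyn. Its commonest pentamers were GGACA with 5 sites and GGACT with 4. Between the site in exon 67, at -3128 nt from the stop codon, and the only site in the last exon, at -49 nt, 60 DRACH motifs had no site.

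Msr1, the class A scavenger receptor, had 7 sites. In the CDS it had 4, of which 3 lay within 59 nt of each other in exon 4, which has 410 nt. The remaining 3, with scores of 0.714, 0.803 and 0.655, lay in an intron of the transcript with the longest CDS but in the 3′ UTR of an annotated transcript with a shorter CDS. Scarb1, the receptor for high-density lipoprotein, had 4 sites, all between 82 and 273 nt past the stop codon, with scores from 0.628 to 0.813. Cd36, a receptor for oxidised lipoprotein and fatty acids, had a single site in exon 3 with a score of 0.604 and none at the 26 DRACH motifs of its last exon. Mrc1, the mannose receptor, had no site.

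Both C-type lectin genes that had sites carried them in the last exon. Clec4e encodes Mincle, the receptor for mycobacterial cord factor, and its 4 sites all scored high: 0.843 and 0.881 in the CDS at -113 and -95 nt from the stop codon, and 0.865 and 0.884 at 19 and 218 nt past it. No other member with more than 1 site had a lowest score as high. Clec4d, which encodes the partner receptor MCL, had 1 site at -77 nt with a score of 0.556. Clec7a, the gene of the beta-glucan receptor Dectin-1, had none at its 54 exonic DRACH motifs.

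Of the Fc gamma receptors, which bind IgG-coated particles, Fcgr1 had 6 sites and Fcgr2b, Fcgr3 and Fcgr4 had none. The 6 sites of Fcgr1, the high-affinity receptor, scored from 0.507 to 0.839. The best of them lay 7 nt past the stop codon, and 3 more were packed into 26 nt at 1151 to 1176 nt past it. Fcer1g, the ITAM-bearing gamma chain that Fcgr1, Fcgr3 and Fcgr4 need for signalling, had 1 site 219 nt past the stop codon with a score of 0.626. Repeated 31-mers made up 15.8% of exonic positions in Fcgr2b and 16.1% in Fcgr3, against 0.386% in Fcgr1 and 1.59% in Fcgr4. Their part in the absence of sites was not tested.

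Among the genes of TREM2-DAP12 signalling and apoptotic cell uptake, 1 of 6 had sites. Trem2, Tyrobp (the DAP12 chain), the receptor tyrosine kinases Axl and Mertk, and Gpnmb had no site. Elmo1, which with DOCK180 activates RAC during engulfment, had 4 sites that lay within 24 nt across the stop codon, at -23, -11, -5 and 0 nt from the first base after it. The window is shown because the stop codon lies inside the cluster, with the 4 predicted m6A in capitals.
Elmo1, chr13:20605273-20605302, plus strand: tatgActttgtctatgActgtaActgaAct
The scores in this order were 0.648, 0.697, 0.550 and 0.810, highest at the site in the 3′ UTR. The other 61 DRACH motifs of the last exon, which has 3255 nt, had no site. Whether sites this close are separate modifications was not tested.

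All 6 genes of kinases, exchange factor and phospholipase had a site, 22 in total, of which 20 were in the 3′ UTR. Lyn, a Src-family kinase that phosphorylates both ITAM and ITIM tyrosines, had 10 sites (chr4:3678115-3813122), 9 of them between 11 and 945 nt past the stop codon. They included 3 sites with scores of 0.907, 0.920 and 0.95. Syk, the kinase that docks on ITAMs, had 4 sites, in a pair at 123 and 155 nt past the stop codon with scores of 0.882 and 0.679 and a distal pair at 1540 and 1548 nt with 0.605 and 0.539. Vav1, an exchange factor for RAC, had 4 sites within 269 nt of the stop codon, with a highest score of 0.937. Fgr, a Src-family kinase, had 2 sites with scores of 0.746 and 0.766, and Btk, a Tec-family kinase, had 1 with a score of 0.901. Plcg2, the phospholipase that BTK activates, was the exception, since its single site lay in exon 17 with a score of 0.555, 2 nt from the upstream junction.

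Lyn and Vav1 had sites on directly neighbouring adenosines. In each of these 3 pairs the upstream A had the pentamer TGAAC, which is not DRACH, and a low score, and the downstream A was in GAACA or GAACT with a high score. The windows are given with both adenosines in capitals.
Lyn, chr4:3790438-3790467, plus strand: aaatgagactattgAAcattttcctttgtg
Lyn, chr4:3790533-3790562, plus strand: agggaccactgctgAActggagccctttgg
Vav1, chr17:57327767-57327796, plus strand: gttgaggggccatgAActgtcctcaccagc
The scores were 0.512 and 0.920, 0.511 and 0.95, and 0.585 and 0.937. When sites within 5 nt were collapsed to the highest score, 132 of the 138 member sites were left.

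Of the inhibitory receptors, their ligand and the phosphatases, 4 of 8 genes had 26 sites. Sirpa, the receptor for the "do not eat me" ligand CD47, had 12 sites (chr2:129592835-129632228), 5 coding and 7 in the 3′ UTR between 125 and 1336 nt past the stop codon. Of the CDS sites, 4 lay in exons 3, 4 and 5, which encode the extracellular immunoglobulin domains, with scores from 0.516 to 0.607. The other CDS site scored 0.753 and lay in the last exon, in codon 485, 4 codons after tyrosine 481 of an ITIM of the cytoplasmic tail. Its sequence is given for that position, with the pentamer in capitals.
Sirpa, chr2:129630086-129630106, plus strand: gctgacctGGACAtggtccac
Cd47 itself had 1 site, in exon 2 with a score of 0.725, and no other site in the span of the gene. Its transcript with the longest CDS has a 3′ UTR of only 3 nt. Letters that read as the ITIM pattern also lay within 10 codons of 3 Elmo1 sites and at 1 Fcgr1 site, in codon 143 of its extracellular part. These matches are of letters only, and the Fcgr1 site, at the tyrosine codon itself, is shown as the other of its kind.
Fcgr1, chr3:96287132-96287152, minus strand, score 0.507: aaactggtGTACAatgtggtt

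Inpp5d and Ptpn6, which encode phosphatases that ITIMs recruit, both had sites. Inpp5d (SHIP-1), which removes the 5-phosphate from PIP3, had 10 sites (chr1:87620312-87720507), 4 coding ones from -725 to -83 nt and 6 in the 3′ UTR from 86 to 577 nt. Its highest score, 0.831, was at a CDS site in exon 25, whereas in 16 of the 24 members the top site was in the 3′ UTR. Ptpn6 (SHP-1) had 3 sites with scores of 0.577, 0.58 and 0.7, of which the highest was in the 3′ UTR. Pirb, Siglece, Lair1 and Cd84, which encode inhibitory or SLAM-family receptors, had none. In Pirb and Cd84 the exonic positions were 48.4% and 43.2% repeated 31-mers, while in Siglece and Lair1 they were 2.27% and 0.321%.

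Prediction scores differed by region. The median score of the 138 sites was 0.719 (quartiles 0.623 and 0.832), against 0.734 in other genes. It was 0.799 in 3′ UTRs and 0.648 in coding sequences of members, and 0.787 and 0.7 in other genes. In all 8 members that had sites in both regions the median was higher in the 3′ UTR, for example 0.810 against 0.589 in Sirpa and 0.837 against 0.691 in Lyn. Scores of 0.9 or more were as frequent as elsewhere, at 12 member sites (8.70%, 5.04 to 14.6%) against 8.77% of sites in other genes. These 12 were all in 3′ UTRs: 5 in Itga4, 3 in Lyn and 1 each in Itga5, Sirpa, Btk and Vav1. m6Aboost reads the transcript region and the sequence as inputs, so the score is not an independent measure of either, and it is not a level of methylation.

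**Figure D3:**
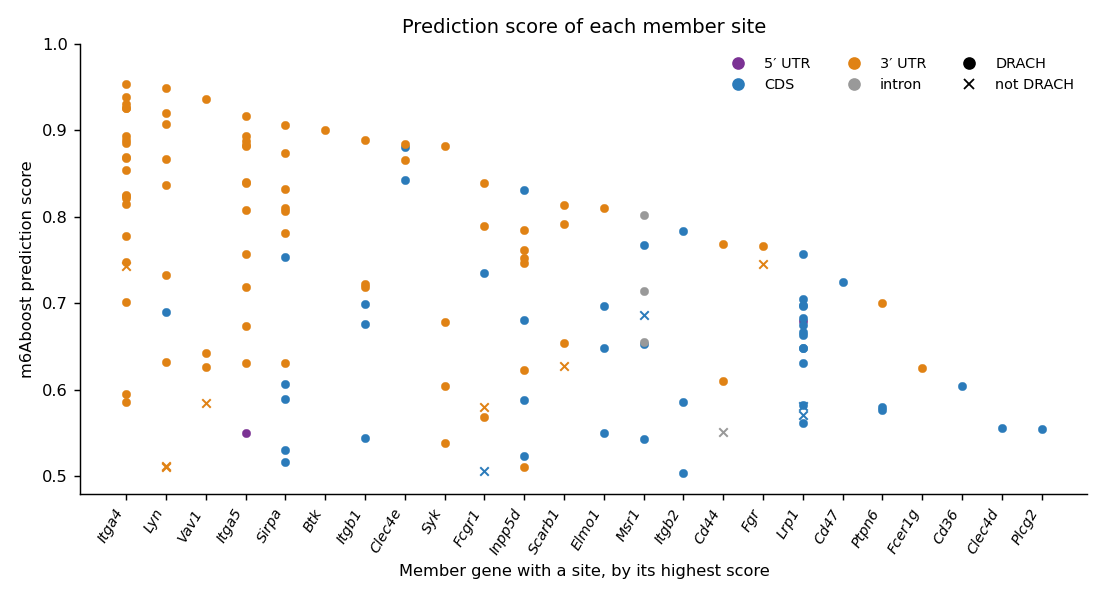
Each point is 1 member site, by gene (x axis, ordered by highest score) and m6Aboost prediction score (y axis, from the threshold of 0.5), coloured by region, with crosses for sites outside DRACH. The 12 sites from 0.9 upward were all in 3′ UTRs, and no Lrp1 site was above 0.757.

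The share of motifs that were listed puts transcripts of different length on 1 scale. In members with a site 123 of 2092 exonic DRACH adenosines were listed (5.88%, 4.95 to 6.97%), against 4.66% in other genes with a site. The last exons carried this difference: 87 of 772 motifs were listed in members (11.3%, 9.23 to 13.7%), against 6.37% elsewhere, while in the other exons the shares were 2.73% and 2.94%. By region, 77 of 695 motifs were listed in the 3′ UTR of members (11.1%, 8.96 to 13.6%), against 4.99% in other genes, and 44 of 1312 in the CDS (3.35%, 2.51 to 4.47%), against 4.6%, so that the CDS share of members was the lower one. Without Itga4 the last-exon share of members was 10.8%. For 7 of the 23 members with a site and a last-exon motif, the interval lay above 6.37%: Itga5, Vav1, Inpp5d, Scarb1, Lyn, Sirpa and Itga4. That is 30.4% of the members (15.6 to 50.9%), an interval that includes the 16.9% of 4893 other genes with a site whose own interval lay above the same level, so this count does not set the members apart. The reverse could be met by only 4 of the 23, since the others had too few motifs for even a share of 0 to have an interval below it. These intervals cover counting error only, and motifs in 1 transcript share its expression.

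**Figure D4:**
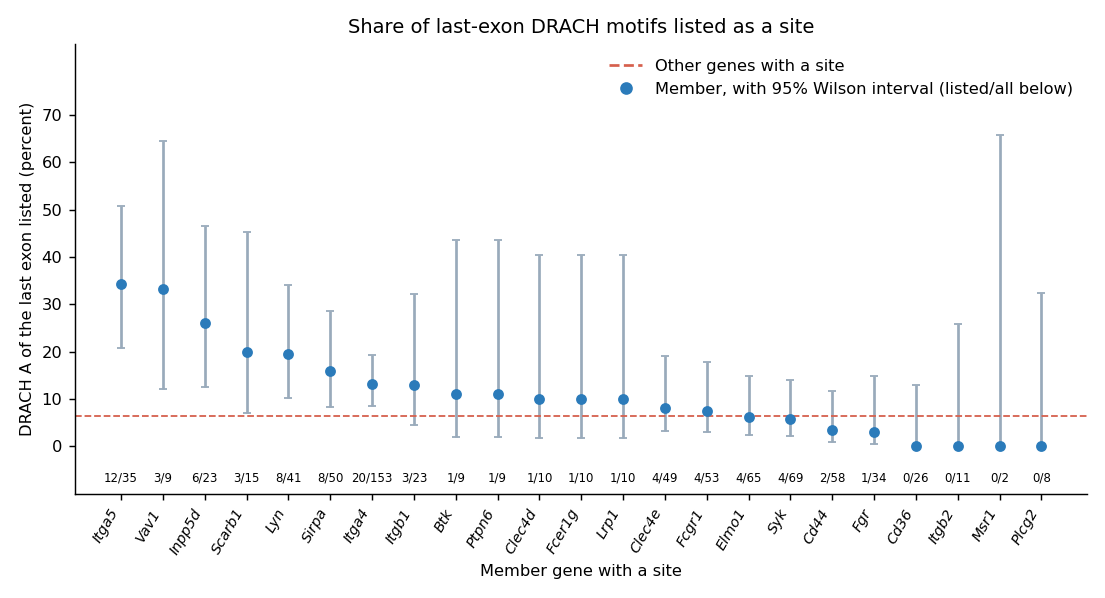
For each member with a site (x axis) the point gives the percentage of last-exon DRACH adenosines that were listed (y axis), the bar its 95% Wilson interval and the fraction below it the counts. The dashed line marks 6.37% in other genes with a site, and Itga5 was highest at 34.3%.

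By pentamer, the higher share in last exons of members was spread over many motifs. Of the 18 DRACH pentamers 13 had a higher listed share in members than in other genes, and for 7 the interval lay above the share in other genes. At GAACT 14 of 34 were listed (41.2%, 26.4 to 57.8%), against 15.8% in other genes. At GAACA the share was 13.0% (7 of 54, 6.42 to 24.4%) against 4.31%, and at TAACT 12.9% (4 of 31, 5.13 to 28.9%) against 2.39%. At AGACT 14 of 54 were listed (25.9%, 16.1 to 38.9%), against 13.9%. At GGACT, the most frequent pentamer elsewhere, the shares were 26.7% (8 of 30) and 24.1%. In the CDS 9.52% of GGACT were listed (8 of 84, 4.91 to 17.7%), against 16.3%. Over all exons the share was 11.9% (14 of 118, 7.20 to 18.9%), against 17.3%. These CDS and all-exon intervals include the shares in other genes. The most frequent pentamers among member sites were GGACA with 20, GAACT with 19 and AGACT with 18, and GGACT came next with 14 sites, 10.1% (6.14 to 16.3%) against 19.4% of sites in other genes. In all, 126 member sites were at DRACH (91.3%, 85.4 to 95%), against 92% elsewhere.

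The 12 sites outside DRACH were in 9 members and had scores from 0.507 to 0.746. In 8 of them the A was followed by C. In the 3 TGAAC sites it was followed by A, and in a GGATT site of Lrp1 by T. Those of at least 0.7 were in Itga4, 4 nt downstream of a DRACH site at TGACA, and in Fgr, where the non-DRACH site was 47 nt upstream of the DRACH site. They are printed with the pentamer in capitals.
Itga4, chr2:79326717-79326737, plus strand, score 0.744: tttgtgacATACTcttagtgc
Fgr, chr4:133000369-133000389, plus strand, score 0.746: gggagtatGTACTtgctcttg

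Sites in internal exons of members lay in shorter exons than those of other genes, but in longer ones than the typical internal exon of the same members. For the 38 such sites the median exon length was 223 nt (quartiles 172 and 332), against 700 nt (363 and 1350) for 4883 sites in other genes. Within 100 nt of an exon junction were 26 of the 38 (68.4%, 52.5 to 80.9%), against 28.6% elsewhere. Most motifs lay there too: of the 1234 internal-exon DRACH motifs of members with a site 1168 were within 100 nt of a junction, and 23 of these were listed (1.97%, 1.32 to 2.94%), against 11 of the 66 farther away (16.7%, 9.57 to 27.4%). In other genes the shares were 0.975% and 10.7%, so in both sets motifs in exon interiors were listed more often. Without Lrp1 11 of 879 motifs near a junction were listed (1.25%, 0.7 to 2.23%), an interval that includes the share in other genes, and 11 of 49 farther away (22.4%, 13.0 to 35.9%). Lrp1 itself had 12 of 289 listed near a junction and 0 of 17 farther away, which allows a share of up to 18.4% by the Wilson interval. Lrp1 gave 14 of the 26 sites near a junction, and without it the share of sites was 12 of 24 (50%, 31.4 to 68.6%) and the median exon length 263 nt. Of the 415 internal exons of members with a site 3 were over 400 nt (0.723%), against 3.18% of those of other genes with a site, while the median internal exon lengths were 120 and 124 nt. The part of exon lengths in the position of the sites was not tested.

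The listed share of motifs was also taken by exon length. In internal exons over 400 nt 5 of 41 DRACH motifs were listed (12.2%, 5.32 to 25.5%), against 10.3% elsewhere. In those over 200 and up to 400 nt 16 of 231 were listed (6.93%, 4.31 to 11.0%), against 2.34%, and without Lrp1 11 of 148 (7.43%, 4.20 to 12.8%). In those of at most 200 nt 13 of 962 were listed (1.35%, 0.791 to 2.30%), against 0.605%, and without Lrp1 6 of 739 (0.812%, 0.373 to 1.76%). Lrp1 alone had 7 of 223 in that class (3.14%, 1.53 to 6.34%).

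**Figure D5:**
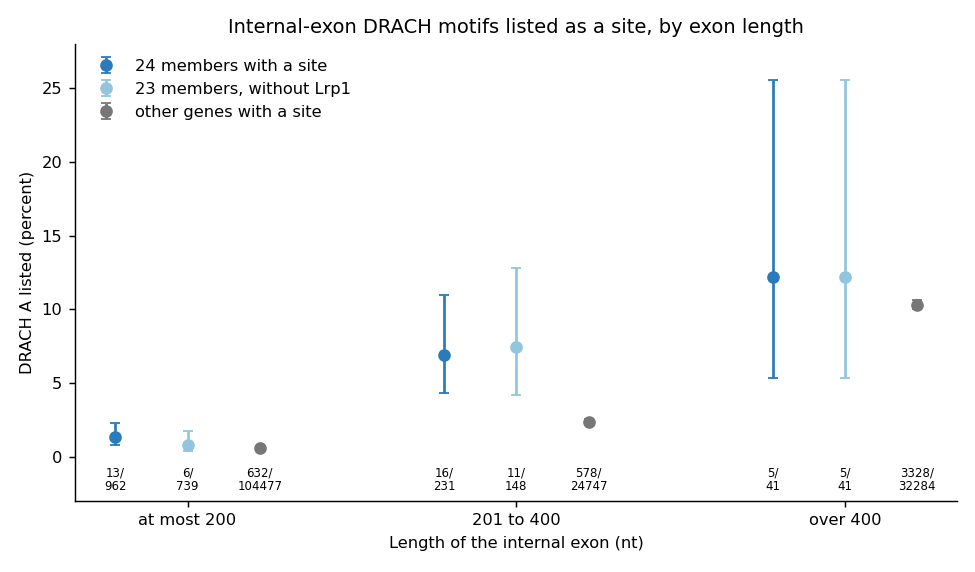
Points give the percentage of internal-exon DRACH adenosines listed (y axis) by length of the exon (x axis) for members with a site, for the same without Lrp1 and for other genes with a site, with 95% Wilson intervals and counts below. The share rose with exon length in all 3 sets, and in the middle class of exon length the members were at 6.93% against 2.34%.

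Most coding sites of members fell on the second base of a codon. Of the 48 CDS sites, 33 did so (68.8%, 54.7 to 80.1%), 8 fell on the first and 7 on the third, against 48.9, 24.5 and 26.6% in other genes. The aspartate codon GAC accounted for 24 of the 48 (50%, 36.4 to 63.6%), against 38.5% elsewhere. The motifs available leaned the same way: 56.9% of CDS DRACH adenosines in members with a site were at the second base, against 49.7% in other genes. The listed shares of CDS motifs at the first, second and last base were 2.22% (1.13 to 4.31%), 4.02% (2.83 to 5.68%) and 2.94% (1.35 to 6.27%) in members, against 4.07, 4.51 and 5.46% in other genes, where the last base of the codon was highest. Lrp1 moved the first of these: without it 2 of 271 motifs were listed at the first base (0.738%, 0.203 to 2.65%) and 24 of 547 at the second (4.39%, 2.97 to 6.45%), and in Lrp1 itself 6 of 90 and 6 of 200.

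Member sites were as crowded as those of other genes. Another site lay within 100 nt for 79 of 134 exonic sites (59.0%, 50.5 to 66.9%), against 60%. Without Itga4 the share was 53.1%. Beside the run of 9 in Itga4, the longest runs were 7 sites of Itga5 in 293 nt and 5 sites of Lyn in 97 nt.

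The 17 members without a site had more motifs than the others by the median and fewer by the mean. Their transcripts had a median length of 3291 nt and 79 exonic DRACH motifs, 29 of them in the last exon, against 3381 nt, 70 and 23 in the 24 members with a site. Together they held 1191 exonic DRACH motifs, a mean of 70.1 per gene against 87.2 in members with a site, and in last exons the means were 27.9 and 32.2. Of the 1191, 102 were in repeated 31-mers (8.56%), against 57 of 2092 in members with a site (2.72%), and under 5% of exonic positions were repeated in 13 of the 17 and 21 of the 24. The part of repeats in the absence of sites was not tested. Over the 41 members the number of sites and of exonic DRACH motifs had a Pearson r of 0.612 and a Spearman rho of 0.241, a weak relation by rank among genes of 1 pooled list. A gene can be absent from the list because it is not expressed, not methylated or not covered by uniquely mapped reads, and these cannot be told apart here.

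Further genes of the same pathways, listed by function with earlier results of these data known, differed by role. Of 72 such genes 44 had a site (61.1%, 49.6 to 71.5%), beside 22.5% of all protein-coding genes. They held 252 sites, and 8 of the 72 had at least 10, beside 1.64% of protein-coding genes. Kinases, adaptors and lipid enzymes had sites in 22 of 29 genes (75.9%, 57.9 to 87.8%) and cytoskeletal effectors in 16 of 22 (72.7%, 51.8 to 86.8%). Further receptors had sites in 6 of 21 (28.6%, 13.8 to 50%), an interval that includes the share of all protein-coding genes. Expression was not measured, and its part in these differences was not tested. The 5 with most sites were Pik3r5, a regulatory subunit of PI3-kinase gamma, with 18, the scavenger receptor Colec12 with 16, Pik3cd, the catalytic PI3-kinase delta subunit, with 13 and a median score of 0.895, the adaptor Crkl with 13 and Rapgef1, an exchange factor for RAP1, with 12. All 13 Pik3cd sites were in the 3′ UTR, whereas Colec12 had 12 of 16 in the CDS. Ptpn11, the gene of SHP-2, named here after its values were seen, had 9 sites, all in the 3′ UTR, with a median score of 0.803.

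Marker genes of macrophages were listed too, although site calls are not a test of the line's label. Of 10 such markers 7 had a site, beside 22.5% of protein-coding genes: Mpeg1 with 17, Cd14 with 13, Csf1r with 11, Spi1 with 6, Ctsd with 5, Lpl with 3 and Lyz2 with 2. Cd68 and the members Adgre1 and Itgam had none. No site was listed in any of 5 T cell, 4 B cell, 4 pluripotent stem cell, 4 fibroblast and 4 epithelial markers, which shows nothing about their expression, whereas a listed site shows that RNA of the gene was captured.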

How the data were processed

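RAW264.7 poly(A)+ RNA was profiled in 3 replicates. Per the labels and methods, the authors mapped reads with STAR 2.7.3a to GRCm38, kept unique mappers, removed duplicates with UMI-tools 1.0.0, called peaks per replicate with PureCLIP, kept those in at least 2 replicates and scored adenosines with m6Aboost. The unit of the deposited list is this prediction score. Library depths are not part of the list and are not used here.

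Sites were placed on GENCODE M21 (the authors used M23 of the same build) with Python 3.11.15, NumPy 2.4.6, SciPy 1.17.1 and pysam 0.24.0, and drawn with matplotlib 3.10.9. Protein-coding genes are those with a coding transcript. Other genes were placed by the same rule, a site in overlapping genes going to one with an exon there, then to the longest CDS. Repeated positions were those whose centred 31-mer occurs again on the chromosomes on either strand. The placement and k-mer counting were tested on simulated data. Shares have 95% Wilson intervals.

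The members and gene lists were chosen with earlier results of these data known. The text names all 41 members, the 5 pathway genes with most sites and the macrophage markers. It also names the pathway genes Ptpn11, Itgax, Itga6 and Itgav, chosen after their values were seen. Printed sequences are the best exonic site of the 8 members with most exonic sites, sites outside DRACH with scores of at least 0.7, sites near an ITIM pattern, and pairs and clusters chosen after their values were seen.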

Additional observations from a re-analysis of the deposited data

How the results depend on the processing

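The list has no replicates or counts, so the precision of single sites is unknown, and intervals cover counting error only. No paired analysis was possible because the replicates belong to 1 condition and were pooled by the authors. Of 49 shares recomputed under alternatives, 28 stayed inside the interval of the reported share and 21 did not. Of 8 counts of sites or genes, 5 stayed within 1.5 times the reported count and 3 did not. The alternatives that leave out a gene were chosen after seeing the data.

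With a minimum score of 0.7, 74 sites were left, with 83.8% in the 3′ UTR, 13.5% in the CDS, 91.7% of exonic sites in the last exon, 97.3% at DRACH, 8.91% of last-exon DRACH listed (64 of 718) and 50% with a neighbour within 100 nt. With a minimum of 0.9, 12 sites in 6 members were left, 100% in the 3′ UTR, 0% in the CDS, 100% in the last exon, 100% at DRACH, 16.7% within 200 nt of the stop codon, 16.7% with a neighbour, and 4.04% of last-exon DRACH listed (12 of 297). These last-exon shares count only motifs of members that still had a site, so they are not on the 772 motifs of the reported share. m6Aboost reads region and sequence, so shifts by region or motif are not independent of the score. The cutoffs were not applied to other genes. The stop codon window held 17.9% at 100 nt and 43.3% at 400 nt, and 47.8% of sites had a neighbour within 50 nt. RRACH held 77.5% of sites. Without Lrp1 the 3′ UTR held 68.9%, the CDS 27% and the last exon 78.8%. With 21-mers 7.18% of exonic positions of the members were repeated, against 4.61% with 31-mers. Collapsing sites within 5 nt, the study's transcript filter, the longest spliced transcript and leaving out Itga4 moved none of the shares recomputed under them beyond its interval, and without Msr1 only the 3′ UTR and CDS shares were recomputed, which also stayed inside. The median 3′ UTR distance, 373 nt, was 269 nt without Itga4. Counting only exons of any transcript left 137 sites in 24 members. Scores were not recomputed under these alternatives.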
